A study of Homo sapiens with 40 samples.

Results

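The genes described here encode the proteins of the cytosolic ribosome. They were taken by symbol (RPL or RPS and a number, with RPLP0, RPLP1, RPLP2 and RPSA) among protein-coding genes with a mean of at least 1 TPM over the 40 libraries, which gave 82 of the 60504 genes in the deposited table. Of these, 31 belong to the small subunit and 46 to the large subunit, which includes the 3 stalk proteins RPLP0, RPLP1 and RPLP2. The other 5 are paralogs (RPL7L1, RPL22L1, RPL26L1, RPL39L and RPS27L). The symbol rule matched 86 genes; 2 Y-linked copies were left out, and RPL3L (0.033 TPM) and RPL10L (0.003 TPM) were below the limit.

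Bulk RNA was sequenced from microglia-like cells differentiated in culture from the human embryonic stem cell line H9, either after CRISPR/Cas9 editing and cloning or unedited (WT). TREM2-KO gave 8 libraries, CD33-SNP and INPP5D-SNP gave 2 each, and TREM2-R47H, SORL1-KO, SORL1-A528T and WT gave 7 each. Per the labels, every edit was homozygous, the SORL1 edits were R744X and A528T, and H9, heterozygous at the INPP5D polymorphism, was made homozygous for its A allele. All groups shared 1 protocol: progenitors taken on day 11, 28 days with IL-34, TGF-beta 1 and M-CSF, and CD200 and CX3CL1 for the last 3 days. The sources used here do not say how many clones stand behind each line or whether its libraries are separate cultures. P-values therefore measure the spread between libraries, which may be partly technical, and line cannot be told apart from clone.

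A ribosome joins a small subunit, which reads the mRNA, to a large subunit, which forms the peptide bonds, and each subunit needs its proteins in matched amounts. Messenger RNAs of ribosomal proteins typically begin with a C followed by a run of pyrimidines, the terminal oligopyrimidine (TOP) tract. Through this tract their translation and stability are tied to the growth-controlling kinase mTORC1 and the RNA-binding protein LARP1. Microglia are the resident macrophages of the brain, and TREM2 is one of their surface receptors for lipids.

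The first bases of several of these transcripts are shown because the TOP tract is the feature the family is best known for. RefSeq windows of build GRCh38.p14 existed for 66 of the 82 genes. A tract was counted where the annotated first base was C and at least the next 4 bases were C or T, read on the gene's own strand. By this count 47 of the 66 genes had a tract at 1 or more of their annotated starts (71.2%), against 1404 of all 27305 genes in the table (5.14%). A window can miss a tract when the true start lies a few bases away. In the lines that follow, each window runs 20 bases before the start and 25 bases from it, and capitals mark the tract.
RPS18, chr6:33272055-33272099, plus strand: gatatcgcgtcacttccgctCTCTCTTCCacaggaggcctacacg
RPLP0, chr12:120201087-120201131, minus strand: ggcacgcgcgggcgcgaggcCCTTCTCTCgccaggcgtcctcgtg
RPL39, chrX:119791606-119791650, minus strand: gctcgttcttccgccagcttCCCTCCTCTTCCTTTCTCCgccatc
RPL12, chr9:127451382-127451426, minus strand: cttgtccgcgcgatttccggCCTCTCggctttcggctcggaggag
RPL22L1, chr3:170870171-170870215, minus strand: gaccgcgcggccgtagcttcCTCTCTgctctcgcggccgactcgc
RPS27, chr1:153990742-153990786, plus strand: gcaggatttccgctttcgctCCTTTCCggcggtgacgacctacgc
RPS26, chr12:56041898-56041942, plus strand: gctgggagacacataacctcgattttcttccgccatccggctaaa
RPS27L, chr15:63157453-63157497, minus strand: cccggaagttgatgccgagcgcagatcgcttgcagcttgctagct
RPS18, RPLP0, RPL39 and RPL12 carry tracts of 9, 9, 19 and 6 bases and are among the genes that rose in TREM2-R47H cells. RPL22L1 and RPS27 also carry tracts, of 6 and 7 bases, while RPS26 and RPS27L have none at the annotated base.

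The values are TPM, which have the same sum in every library, so read depth cannot be recovered from them; the labels give a mean depth of 45.13 M reads per library, the lowest 39.2 M and the highest 64.6 M. TREM2 had 24.6 to 46.5 TPM in TREM2-KO libraries, against 294.5 to 585.4 TPM in WT libraries, and SORL1 had 12.6 to 21.5 TPM in SORL1-KO libraries, against 18.6 to 43.2 TPM in WT libraries. The microglia and macrophage markers AIF1 (at least 816.8 TPM) and CSF1R (at least 600.3 TPM) were present in every library, whereas the microglia marker TMEM119 reached no more than 14.6 TPM; the pluripotency markers NANOG, SOX2, POU5F1 and LIN28A stayed at or below 0.36 TPM. TREM2-KO library 8, SORL1-KO library 7 and SORL1-A528T library 7 stood apart, with median correlations of 0.933, 0.934 and 0.946 to the other libraries of their own group. Counts of called members and share differences that rest on them are given without them as well. Marker calls and counts by subunit are given only with them. In bulk RNA a change in the mix of cells and a change of RNA per cell cannot be told apart.

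Ribosomal protein genes were among the most abundant transcripts of these cells. They made up 19 of the 50 genes with the highest mean TPM and 75 of the highest 200. Averaged over the 40 libraries, 73 of the 82 had at least 1000 TPM, and the median gene had 1784 TPM. TPM is scaled by transcript length, so levels of different genes can be set side by side.

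The highest means belonged to RPS19 (3851 TPM), a small-subunit protein often mutated in Diamond-Blackfan anaemia, RPL41 (3839 TPM), which encodes a very short peptide of the large subunit, RPL37A (3375 TPM), RPS27 (3236 TPM) and RPS23 (3184 TPM). The order was stable at the top: RPS19 and RPL41 ranked between 1 and 3 in every library, RPS23 between 4 and 7 and RPL37A between 2 and 9, while RPS27 moved between 2 and 17. At the other end stood the paralogs, RPL39L (20.4 TPM), RPL26L1 (48.7 TPM), RPL7L1 (59.4 TPM), RPL22L1 (86.0 TPM) and RPS27L (181.2 TPM). The lowest gene that is no paralog was RPS26 (483.3 TPM), a small-subunit protein near the mRNA exit channel.

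**Figure D1:**
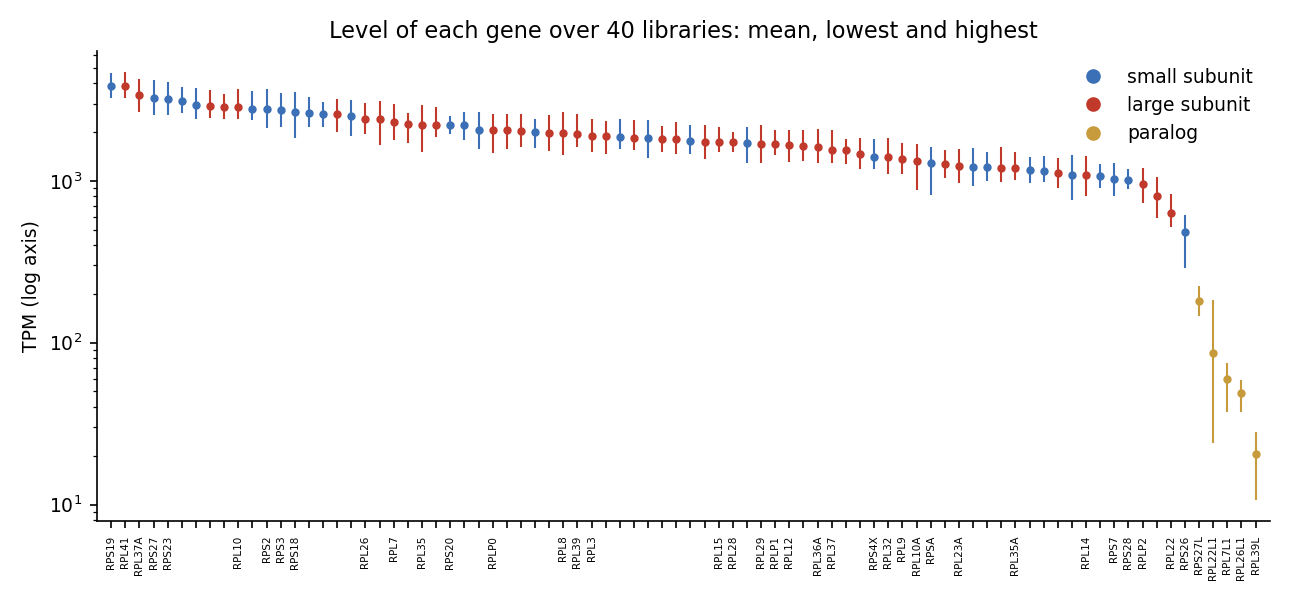
TPM (log axis) of each of the 82 genes, ordered by mean; points are means over 40 libraries and lines run from the lowest to the highest library, and genes named in the text are labelled. The genes other than the paralogs form a plateau that falls slowly from RPS19 (3851 TPM) to RPS26 (483.3 TPM), the 5 paralogs lie below it, and RPL22L1 has the longest line.

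Some levels depend on how reads were divided between near-identical copies. Processed pseudogenes of RPL23A together held 66.3% as much TPM as RPL23A itself, those of RPL9 43.4%, those of RPL22 33.4% and those of RPS2 13.6%. For RPL9 nearly all of this was RPL9P9 (589.2 TPM) and for RPS2 nearly all was RPS2P5 (365.2 TPM). Values of these 4 genes are therefore uncertain. Over all 1144 pseudogene rows the share of TPM was small, at 0.345% ± 0.0173 in TREM2-R47H libraries (SD, n = 7) and 0.286% ± 0.0126 in WT libraries (SD, n = 7).

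The 82 genes held a larger part of the RNA in TREM2-R47H than in WT cells. Their share of all TPM was 17.0% ± 1.04 in TREM2-R47H libraries (SD, n = 7; lowest 15.5%, median 16.9%, highest 18.4%), against 14.1% ± 0.735 in WT libraries (SD, n = 7; lowest 12.7%, median 14.3%, highest 14.8%). Every TREM2-R47H library lay above every WT library, and the means differed by 2.93 percentage points. The share was 14.4% ± 0.856 in TREM2-KO (n = 8), 14.9% ± 1.38 in SORL1-KO (n = 7), 14.2% ± 1.33 in SORL1-A528T (n = 7), 14.5% ± 2.59 in CD33-SNP (n = 2) and 13.9% ± 1.89 in INPP5D-SNP libraries (SD, n = 2). The ranges of these 5 lines overlapped with that of WT. TREM2-KO overlapped with TREM2-R47H through a single library, its library 3 at 15.484%, against 15.477% in TREM2-R47H library 4. SORL1-KO libraries 3, 5 and 6 (16.2%, 16.2% and 16.6%), CD33-SNP library 2 (16.3%) and SORL1-A528T library 3 (15.6%) also lay within the TREM2-R47H range. Without the 3 libraries that stood apart, the difference between TREM2-KO and TREM2-R47H was -2.39 points, against -2.60 points with them.

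Both subunits contributed to the difference. Small-subunit genes with the paralog RPS27L held 7.16% ± 0.483 of TPM in TREM2-R47H libraries and 6.02% ± 0.296 in WT libraries (SD, n = 7 each). Large-subunit genes with the paralogs RPL7L1, RPL22L1, RPL26L1 and RPL39L held 9.87% ± 0.563 in TREM2-R47H libraries and 8.08% ± 0.444 in WT libraries (SD, n = 7 each). Neither pair of ranges overlapped.

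Libraries with the same number moved together in this share. Number 4 was the lowest of the group in TREM2-R47H and WT, and second lowest in TREM2-KO, SORL1-KO and SORL1-A528T, where the lowest was the library that stood apart. Number 3 or 6 held the highest share in each group with at least 7 libraries. Set against the WT library of the same number, all 7 TREM2-R47H libraries were higher, by 2.47 to 3.67 points. Their sign was fixed in advance, as every TREM2-R47H library lay above every WT library. All 7 TREM2-KO libraries with a WT counterpart were also higher, by a smaller 0.162 to 1.13 points.

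**Figure D2:**
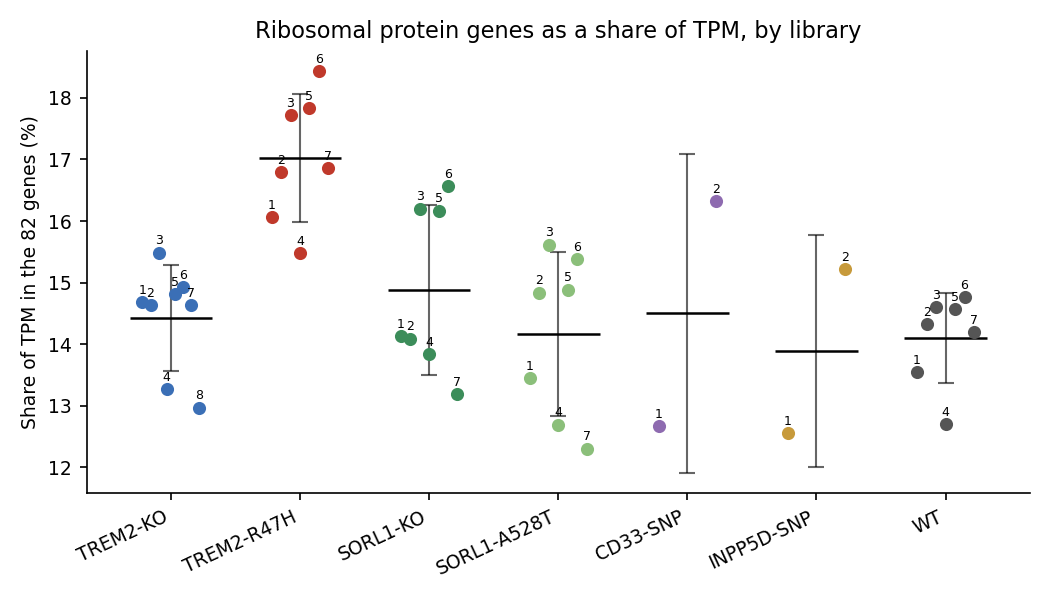
Share of TPM (%) held by the 82 genes in each library, with library numbers beside the points, group means as bars and SD as whiskers. All 7 TREM2-R47H libraries (15.5% to 18.4%) lie above all 7 WT libraries (12.7% to 14.8%), and in CD33-SNP and INPP5D-SNP the 2 libraries lie far apart.

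The comparison of TREM2-R47H with WT asks how a coding variant of the receptor, associated with Alzheimer's disease, alters these cells. In limma's test on log2(TPM + 1), with Benjamini-Hochberg adjustment over 14855 kept genes, 63 of the 82 ribosomal protein genes were higher in TREM2-R47H and 0 were lower at an adjusted p below 0.05; 2.63% of all kept genes were called higher. The difference was positive for 81 of the 82 genes, with a median of 0.27 on the log2 scale, against -0.06 over all kept genes. In each of the 63 called genes all 7 TREM2-R47H libraries lay above the WT mean, and for 45 genes the ranges did not overlap at all, which held for 1.12% of all kept genes. All 82 genes passed the filter on low values.

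Among small-subunit genes 23 of 31 rose. RPS18, a protein of the head of the subunit, had 2935, 3393 and 3543 TPM in the lowest, median and highest TREM2-R47H library, against 2124, 2494 and 2604 TPM in WT libraries. The groups did not overlap, and the difference of 0.44 ± 0.10 (log2, SE; adjusted p = 0.00346) was the largest of all called members, a 1.36-fold change. Without WT libraries 4, 5 and 6 it was 0.40 and no longer called, as the adjusted p, 0.05 when rounded, was not below 0.05. RPS2 (0.36) and RPS7 (0.34 ± 0.07, adjusted p = 4.3e-04) rose by nearly as much, RPS7 being a Diamond-Blackfan anaemia gene that also binds MDM2.

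Among large-subunit genes 40 of 46 rose. RPL12, at the base of the stalk, had 1803, 1960 and 2048 TPM in the lowest, median and highest TREM2-R47H library, against 1411, 1551 and 1592 TPM in WT libraries. These ranges were apart, and the difference was 0.35 ± 0.07 (log2, SE; adjusted p = 3.2e-04). RPL37 had the lowest adjusted p of the family (2.3e-04), with 1695, 1792 and 2056 TPM in TREM2-R47H libraries, against 1287, 1479 and 1566 TPM in WT libraries. RPL35 (0.39), RPL32 (0.39), RPL8 (0.38), RPL29 (0.38) and RPL14 (0.36) were, with RPL12 and RPLP0, the large-subunit genes among the 10 largest called changes. Without WT libraries 4, 5 and 6 the adjusted p was 0.174 for RPL35 and 0.0564 for RPL29, so neither was called. RPL35 did not separate fully: its lowest TREM2-R47H library had 2204 TPM and its highest WT library 2213 TPM.

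The stalk, which recruits the translation elongation factors, is built from RPLP0, RPLP1 and RPLP2, and all 3 genes passed the threshold. RPLP0, the stalk base and a common reference gene in quantitative PCR, had 2266, 2430 and 2596 TPM in the lowest, median and highest TREM2-R47H library, against 1775, 1863 and 2083 TPM in WT libraries. It rose by 0.37 ± 0.07 (log2, SE; adjusted p = 7.6e-04) with no overlap, the seventh largest change among called members. RPLP1 (0.20, adjusted p = 0.00793) and RPLP2 (0.22, adjusted p = 0.0479) changed less, and their ranges overlapped. The call of RPLP2 was lost without a filter on low values, with libraries 5 and 6 averaged and without WT libraries 4, 5 and 6 (adjusted p between 0.0526 and 0.0967).

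The X-linked genes RPL10, RPL39, RPS4X and RPL36A were all called higher, by 0.24, 0.29, 0.22 and 0.27 on the log2 scale. RPL39, whose protein lines the peptide exit tunnel, had 2035, 2191 and 2570 TPM in the lowest, median and highest TREM2-R47H library, against 1644, 1836 and 2016 TPM in WT libraries. Of the 10 listed genes mutated in Diamond-Blackfan anaemia, 8 rose; RPS19 (0.11) and RPS26 (0.10) were the other two.

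The 19 genes that missed the threshold included all 5 paralogs and several of the most abundant members. RPS27 had 2772, 3469 and 4173 TPM in the lowest, median and highest TREM2-R47H library, against 2738, 3348 and 3633 TPM in WT libraries, a difference of 0.07 ± 0.11 (log2, SE; adjusted p = 0.806). RPS19 had 3645, 4017 and 4660 TPM in TREM2-R47H libraries, against 3402, 3776 and 4093 TPM in WT libraries (0.11 ± 0.07, adjusted p = 0.335). Both pairs of ranges overlapped widely. RPS23 (0.21, adjusted p = 0.0804) and RPL10A (0.30, adjusted p = 0.0811) also missed it, although all 7 TREM2-R47H libraries lay above the WT mean in each.

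**Figure D3:**
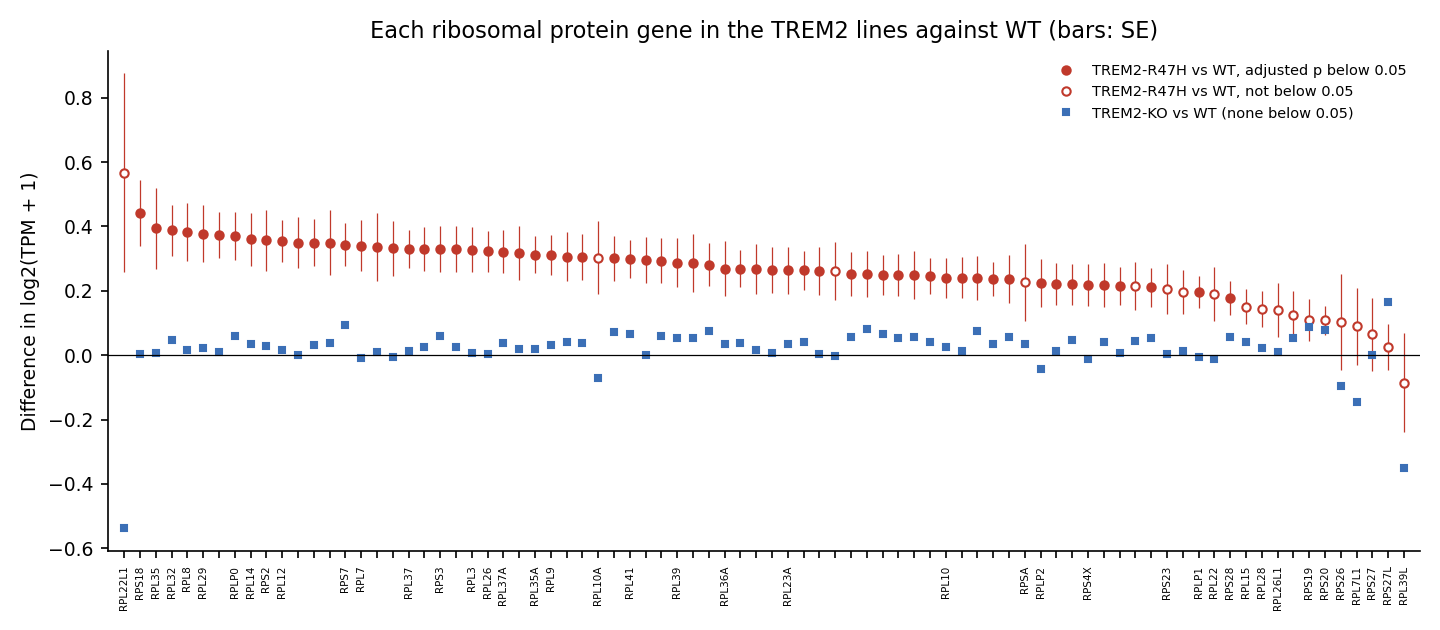
Difference from WT in log2(TPM + 1) for each of the 82 genes, in TREM2-R47H (circles, with SE; filled where the adjusted p is below 0.05) and in TREM2-KO (squares), ordered by the TREM2-R47H value, with genes named in the text labelled. The 63 filled circles lie between 0.18 (RPS28) and 0.44 (RPS18); both contrasts share the WT libraries.

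Relative to the median of the 82 genes, the group means spread most for RPL22L1 (0.86 on the log2 scale, TREM2-R47H highest and TREM2-KO lowest), RPL39L (0.45, CD33-SNP highest and TREM2-KO lowest) and RPS27L (0.38, TREM2-KO highest and TREM2-R47H lowest). RPL22L1, the paralog and alternative of RPL22, fell into separate levels within TREM2-R47H. Libraries 1, 2, 3 and 7 had 162.0 to 183.8 TPM, and libraries 4, 5 and 6 had 69.9 to 83.4 TPM. In WT, libraries 1, 2, 3 and 7 had 78.6 to 96.0 TPM and libraries 4, 5 and 6 had 74.0 to 81.7 TPM, so only the first set of TREM2-R47H libraries lay above WT. Over all 7 libraries the difference from WT was 0.57 ± 0.31 (log2, SE; adjusted p = 0.269). With the library number as a replicate block in the fit of the 2 groups alone it was called, at an adjusted p of 0.0456; over all alternatives the adjusted p ran between 0.0456 and 0.582.

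RPS26 had the same division by library number in TREM2-R47H, with 585.7 to 610.8 TPM in libraries 1, 2, 3 and 7 and 415.9 to 481.1 TPM in libraries 4, 5 and 6, against 477.2 to 556.2 TPM and 455.0 to 505.6 TPM in the same libraries of WT. RPS18 had no such division: it was 3155 to 3543 TPM and 2935 to 3530 TPM in those 2 sets of TREM2-R47H libraries, against 2430 to 2604 TPM and 2124 to 2494 TPM in WT. The sources used here do not say what a library number marks.

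The paralogs were minor beside their counterparts. RPL22L1 made up 15.4% ± 5.36 of the RPL22 and RPL22L1 total in TREM2-R47H libraries (SD, n = 7), 8.76% ± 2.72 in TREM2-KO libraries (SD, n = 8) and 11.7% ± 1.15 in WT libraries (SD, n = 7). RPS27L, a p53 target, made up 5.08% ± 0.925 of the RPS27 and RPS27L total in TREM2-R47H, 5.82% ± 1.00 in TREM2-KO and 5.21% ± 0.879 in WT libraries. RPL7L1, RPL26L1 and RPL39L made up at most 2.995%, 2.425% and 1.41% of the total with their counterparts in any library. The counterparts RPL3, RPL7, RPL10, RPL26 and RPL39 rose in TREM2-R47H by 0.33, 0.34, 0.24, 0.32 and 0.29 (log2), whereas RPL22 (0.19, adjusted p = 0.150) and RPS27 missed the threshold.

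**Figure D4:**
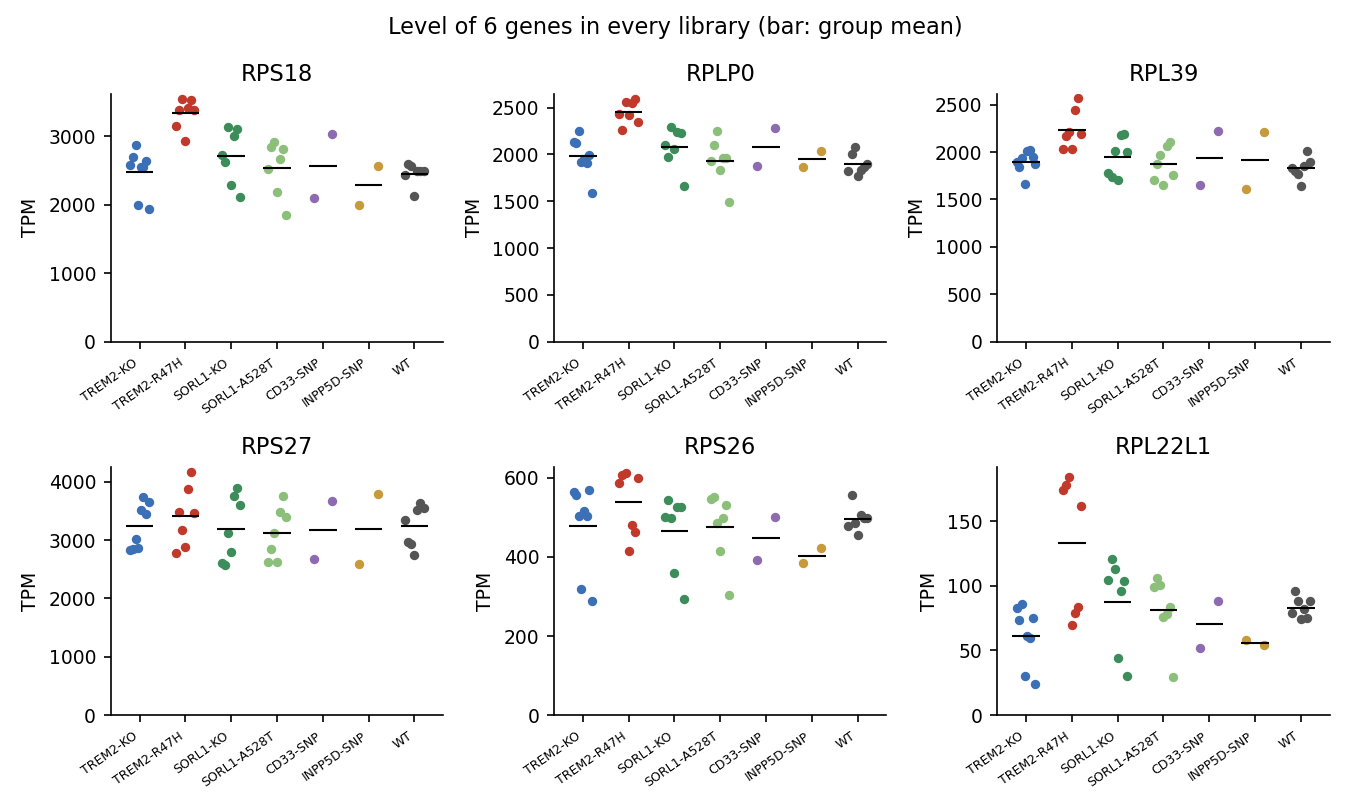
TPM of 6 genes in every library by group, with group means as bars; all axes start at 0. RPS18, RPLP0 and RPL39 are highest in TREM2-R47H, RPS27 overlaps between TREM2-R47H and WT, and RPS26 and RPL22L1 show separate levels within TREM2-R47H.

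To ask which members changed out of step, each gene was expressed relative to the median of the 82 in its library and the fit repeated over all genes. In TREM2-R47H against WT, 5 members were higher than the family and 7 lower. In that fit 46.3% of all kept genes were called. Scaling to the family median shifts every other gene by the family's own difference, so this share is no background for the members. The adjustment ran over these same genes, so the member calls depend on that shift too. Without the 3 libraries that stood apart, which enter the shared variance, 10 were higher and 8 lower. Those that rose beyond the median included RPS18 (0.17), RPL32 (0.12), RPL29 (0.11) and RPL12 (0.09). Those lower relative to it included RPL15 (-0.12), RPL28 (-0.12), RPS19 (-0.16), RPS20 (-0.16), RPS27L (-0.24) and RPL39L (-0.35).

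Members were also read by the tract at their annotated start. The 47 genes with a tract had a median difference of 0.26 in TREM2-R47H against WT, and 40 of them were called; the 19 without had a median of 0.26, and 10 were called. The 2 sets thus had the same median, while a smaller part of the genes without a tract passed the threshold. Both sets include paralogs, none of which was called. Without the paralogs, 62 genes had a window and 46 of these a tract. The difference between the sets was not tested. By transcript length, the 41 genes with the shorter transcripts (359 to 750.5 bases) had a median of 0.26 and the 41 with the longer ones (764 to 4122.5 bases) a median of 0.28.

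Other genes of the translation machinery were read in the same contrast. Of 20 elongation factors and further mRNAs known to begin with a TOP tract, 9 rose and 0 fell (median 0.19). They included RACK1, a scaffold on the small subunit (0.34, adjusted p = 3.9e-05), EEF2, the translocase (0.33, adjusted p = 9.9e-05), and EEF1A1, which delivers aminoacyl-tRNA (0.26, adjusted p = 1.7e-04). EEF1A1 had 9073 ± 567.8 TPM in TREM2-R47H libraries and 7560 ± 286 TPM in WT libraries (SD, n = 7 each).

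Of 7 kept snoRNA host genes 4 rose: ZFAS1 (0.49, adjusted p = 5.4e-06), SNHG6 (0.36), GAS5 (0.48) and SNHG5 (0.40). Of 35 initiation factors 5 rose (EIF3E, EIF2S3, EIF3D, EIF3H and EIF4B, by 0.17 to 0.28), with a median of 0.09. EIF3E and EIF3H also belong to the list of elongation factors and further TOP mRNAs and are counted in both. Of 51 ribosome biogenesis factors 1 rose, NPM1, a nucleolar chaperone (0.44, adjusted p = 0.0199), and the list's median was 0.17. Of the 78 proteins of the mitochondrial ribosome 1 rose, MRPL45 (0.24), with a median of 0.13. Both of these counts are at or below the 2.63% of all kept genes called higher and so are no result about the lists.

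Genes that act on the family were read against the 11.4% of all kept genes called in either direction. Of 22 genes of mTORC1 and TOP control, AKT1S1, an mTORC1 inhibitor, rose (0.31) and EIF4EBP2, a repressor of cap-dependent initiation, fell (-0.22), with a list median of 0.00. In the RNA polymerase I and MYC list 1 of 16 genes was called, MAX (-0.36), and in the ribosomal stress list 1 of 17, MDM4 (-0.51). These shares lie near or below that of all kept genes and are no result about the lists. Of 4 ribosomal proteins outside the symbol rule 1 was called, RACK1, given above.

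Other features of the libraries also differed between TREM2-R47H and WT. The 13 summed stromal and endothelial markers had 134.0 to 271.7 TPM in TREM2-R47H libraries, against 188.7 to 3240 TPM in WT libraries. Of the 10 kept markers 5 were lower (LUM, DCN, TAGLN, PECAM1 and COL3A1). PECAM1 had at least 123.8 TPM in every library, whereas the endothelial markers VWF and KDR had at most 1.89 and 6.98 TPM. PECAM1 is therefore not read here as a sign of endothelial cells. It held a mean of 144.1 TPM of the sum in TREM2-R47H and 236.4 TPM in WT. A lower sum than in WT was not particular to TREM2-R47H. Its mean was 1019 TPM in WT and 210 TPM in TREM2-R47H. In TREM2-KO, SORL1-KO, SORL1-A528T and CD33-SNP it was 333, 244, 264 and 287 TPM, and in INPP5D-SNP 1522 TPM. The WT excess lay mainly in libraries 4, 5 and 6, with 907.2 to 3240 TPM, whereas the endothelial marker CDH5 was at most 0.23 TPM in any library. Without these 3 WT libraries 34 members were called higher, the median was still 0.27, and the share differed by 2.86 points. That fit had fewer WT libraries, and the share of all kept genes called in it is not given here. Of 17 microglia and macrophage markers, GPR34 was higher and AIF1, C1QC, ITGAM and C1QA were lower; their sum was 7475 to 11198 TPM in TREM2-R47H libraries, against 9697 to 11977 TPM in WT libraries. Of 3 kept progenitor markers KIT (-1.74, adjusted p = 0.0015) and SPN (-0.32, adjusted p = 0.0165) were lower. The third, GATA2, went the other way (0.29) and was not called, with means of 1.41 TPM in TREM2-R47H and 1.05 TPM in WT. KIT was low, at most 1.99 TPM in TREM2-R47H and 9.89 TPM in WT libraries, and CD34 was at most 0.11 TPM in any library. In this contrast 11.4% of all kept genes were called in either direction. Transcripts of the mitochondrial genome held 13.0% ± 0.807 of TPM in TREM2-R47H libraries and 11.9% ± 0.812 in WT libraries (SD, n = 7 each). The part of the stromal, microglial, progenitor and mitochondrial transcripts in the result was not tested.

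Because TPM has a fixed sum, a larger ribosomal protein share leaves less for other genes. All other genes together held 83.0% of TPM in TREM2-R47H and 85.9% in WT, a log2 ratio of -0.05. Of 14773 genes outside the family, 327 were called higher and 1303 lower with TPM as deposited, and 417 higher and 899 lower when TPM was rescaled without the 82 genes. The median difference of these genes was -0.06 as deposited and -0.02 after rescaling.

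The comparison of TREM2-KO with WT asks what loss of the same receptor does. None of the 82 genes was called (limma, adjusted p below 0.05; 2 had an unadjusted p below 0.05), where 1.61% of all kept genes were. The median difference was 0.03, with 68 of 82 positive. The share of TPM differed by 0.327 points, and by 0.535 points without TREM2-KO library 8, where again none was called. RPS27L had the smallest adjusted p, 0.321, with 173.8, 198.6 and 224.5 TPM in the lowest, median and highest TREM2-KO library, against 146.6, 183.7 and 201.7 TPM in WT libraries. With the library number as a replicate block, which the residuals of these 2 groups bear out as a pairing, RPS27L was called higher by 0.19. The adjusted p was 0.035 over all libraries and just below 0.05 in the 2 groups alone.

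Set directly against TREM2-R47H, TREM2-KO cells had lower levels of most of the family. Of the 82 genes 59 were lower and 0 higher; 6.58% of all kept genes were called lower. The median was -0.23, against 0.06 over all kept genes, and for 27 genes the ranges did not overlap, as for 1.91% of all kept genes. This contrast and that with WT share the TREM2-R47H libraries. Large-subunit genes were lower in 41 of 46 cases and small-subunit genes in 17 of 31.

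Markers moved in this contrast too, where 21.3% of all kept genes were called in either direction. Of 17 microglia and macrophage markers 7 were higher in TREM2-KO, among them CD14 (1.24), C1QA (1.01), ITGAM (0.83) and AIF1 (0.49), and GPR34 was lower (-0.66). Their sum was 10375 to 15123 TPM in TREM2-KO libraries, against 7475 to 11198 TPM in TREM2-R47H libraries. TREM2-KO libraries 4 and 8 had 15123 and 15081 TPM, and the other TREM2-KO libraries 10375 to 10923 TPM. In TREM2-R47H library 4 had 11198 TPM and the others at most 9359 TPM. The marker calls of this contrast are given only with TREM2-KO library 8, which stood apart. Of 8 cycling markers TOP2A (0.64) and MKI67 (0.40) were higher, of 3 kept progenitor markers KIT (1.496) and SPN (0.25), and of 10 kept stromal and endothelial markers PECAM1 (0.82). The summed stromal and endothelial markers had 194.3 to 465.2 TPM in TREM2-KO libraries, against 134.0 to 271.7 TPM in TREM2-R47H libraries. Most of this sum was PECAM1, with a mean of 264.8 of 332.8 TPM in TREM2-KO and 144.1 of 209.8 TPM in TREM2-R47H. As above, PECAM1 is not read as a sign of endothelial cells. The collagens differed little: COL1A1 had means of 17.9 and 16.3 TPM, COL1A2 16.5 and 17.1 TPM, and COL3A1 21.6 and 19.7 TPM. The median difference of the kept stromal and endothelial markers was -0.11. The part of these transcripts in the result was not tested.

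The largest fall was that of RPL22L1, which had 23.9, 67.2 and 85.8 TPM in the lowest, median and highest TREM2-KO library, against 69.9, 162.0 and 183.8 TPM in TREM2-R47H libraries (-1.11 ± 0.30, log2, SE; adjusted p = 0.0066). Its ranges overlapped through TREM2-R47H libraries 4, 5 and 6. RPS18 fell by 0.44 ± 0.10 (adjusted p = 0.00138) and had 1939, 2566 and 2882 TPM in TREM2-KO libraries, all below the lowest TREM2-R47H library. RPL35 (-0.39), RPL10A (-0.37), RPL8 (-0.37) and RPLP0 (-0.31) were also lower. RPS19 (-0.02), RPS27 (-0.07) and RPS27L (0.14) were not called. Without the 3 libraries that stood apart, 58 genes were lower, and the share of all kept genes called in that fit is not given here. In the fit relative to the family median 47.8% of all kept genes were called, which, as above, is no background for the members. In it 7 members were higher and 8 lower in TREM2-KO, and 8 and 8 without the libraries that stood apart. RPS27L (0.38) and RPS20 (0.21) were among the higher ones and RPL22L1 (-0.86) and RPS18 (-0.19) among the lower ones.

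None of the 82 genes was called in any other line. In SORL1-KO against WT 1.09% of all kept genes were called, and 1 member (RPL12) had an unadjusted p below 0.05; the median of the 82 was 0.07. In SORL1-A528T against WT 0.0471% of all kept genes were called, 0 members had an unadjusted p below 0.05, and the median was 0.00. In SORL1-KO against SORL1-A528T 0.0942% were called and 0 members had an unadjusted p below 0.05; the median was 0.07, with 77 of 82 positive. Without the libraries that stood apart 0 members were called in these 3 contrasts. The share then differed by 1.07, 0.378 and 0.688 points, against 0.783, 0.0673 and 0.716 points with them.

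CD33-SNP and INPP5D-SNP had 2 libraries each. The share of TPM was 12.7% and 16.3% in the CD33-SNP libraries, on either side of the WT mean, and 12.6% and 15.2% in the INPP5D-SNP libraries. Against WT 0% of all kept genes were called in CD33-SNP and 0.0337% in INPP5D-SNP. In both, 0 members had an unadjusted p below 0.05, and the medians were 0.03 and -0.03. The sign of the share difference from WT depended on which library was kept: without library 1 it was 2.23 points in CD33-SNP and 1.12 points in INPP5D-SNP, and without library 2 it was -1.43 points in CD33-SNP and -1.55 points in INPP5D-SNP. A difference from WT was not detectable with these libraries.

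**Figure D5:**
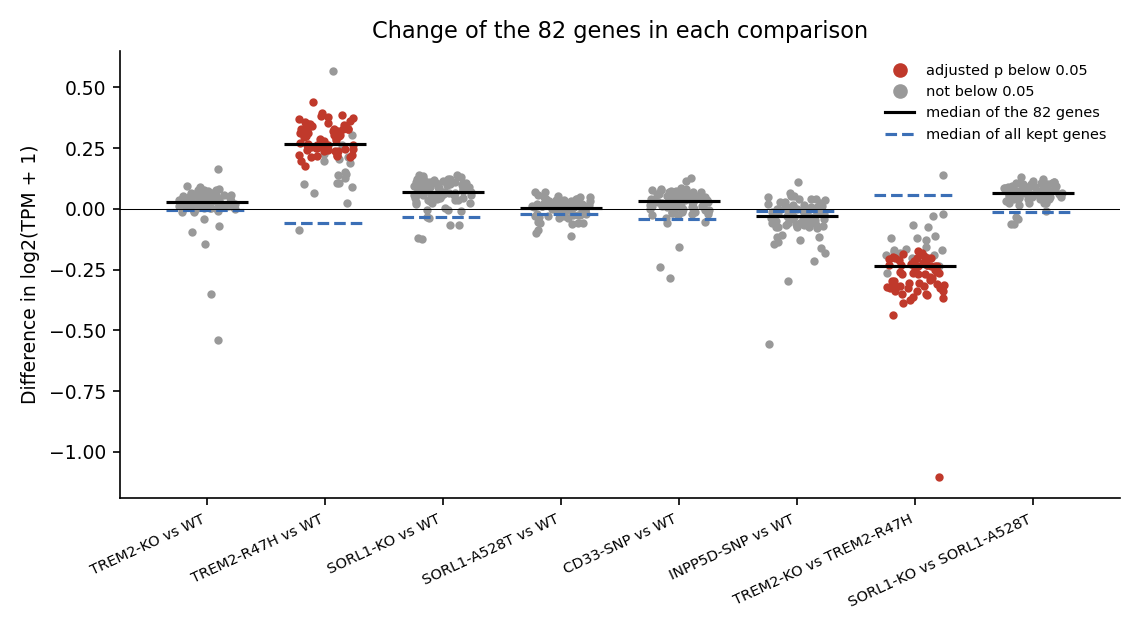
Differences in log2(TPM + 1) of the 82 genes in 8 comparisons, red where the adjusted p is below 0.05, with the median of the 82 (black) and of all kept genes (blue, dashed). Red points appear only in the comparisons that include TREM2-R47H: 63 above 0 against WT, and 59 below 0 when TREM2-KO is set against it.

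Whether TREM2-R47H also stands above the SORL1 lines was tested in the same fit, a comparison added after the data were seen. Against SORL1-A528T 58 of the 82 genes were higher (1.18% of all kept genes), with a median of 0.27. Against SORL1-KO 4 were higher (0.33% of all kept genes), with a median of 0.20 and all 82 genes positive. They included RPL37 (0.22), RPL35A (0.24) and RPL41 (0.24). Without the libraries that stood apart 46 genes were higher against SORL1-A528T (1.1% of all kept genes) and 3 against SORL1-KO (0.35% of all kept genes).

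Within groups the genes varied together. After the group means were removed, the correlation of each gene with the median of the other 81 over 40 libraries had a median of 0.91 and was above 0.8 for 64 genes. A single component held 69.9% of the variance of the 82 genes. Over the 37 libraries left without those that stood apart, the median was 0.91, 67 genes were above 0.8 and the component held 66.5%. RPS3 (0.98) and RPL12 (0.98) followed the family most closely. RPS27L (0.05), RPS19 (0.42), RPL39L (0.44), RPS27 (0.48) and RPS28 (0.49) followed it least. The median SD within groups was 0.13 on the log2 scale, against 0.20 for 310 other genes with a mean of at least 300 TPM. These points share their libraries, and the fixed sum of TPM links all genes.

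Among 8243 other genes with at least 10 TPM, the closest to the family's median residual over the 40 libraries were RPL9P9 (Pearson r = 0.95), BTF3 (0.93), RPS2P5 (0.91, a pseudogene like RPL9P9), SNHG8 (0.90), EEF1G (0.90), HNRNPA1 (0.89), LRRC75A-AS1 (0.89), EIF3M (0.89), SNHG19 (0.89) and EEF1B2 (0.89). BTF3 is a subunit of the nascent polypeptide-associated complex, and EEF1G and EEF1B2 are subunits of elongation factor complex eEF1B. BTF3 had 735.1 ± 54.8 TPM in TREM2-R47H libraries and 601.8 ± 42.1 TPM in WT libraries (SD, n = 7 each).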

How the data were processed

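The authors deposited TPM per gene and library; per the submitters' processing notes, cutadapt 1.18, STAR 2.7, RSEM 1.3.1 and DESeq2 were used. Genome build and annotation: not given in the sources used here. Gene symbols came from GENCODE 29, matched by Ensembl ID (94.2% of IDs). Columns summed to between 999999.15 and 1000000.76, so depth is unknown from the table.

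The linear models of limma 3.58.1 (R 4.3.3), with trended and robust variance, were fitted to log2(TPM + 1) of all 40 libraries at once; 14855 genes were kept, those reaching 1 TPM in 7 or more libraries. P-values were two-sided and Benjamini-Hochberg adjusted over these genes; "called" means below 0.05. Differences are on this log2 scale, tested line minus its comparison. The procedure was tested on simulated data. Tables and figures were made with Python 3.11.15, pandas 2.3.3 and matplotlib 3.10.9.

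The members, lists and tests were chosen with earlier results of these data known. Genes named were the called members with the 10 largest changes each way, the 5 highest and 5 lowest, paralogs with counterparts, the stalk, the 3 with the largest relative spread, up to 4 called genes per list and the 10 most alike genes; others were chosen after their values were seen. No p is given for shares. A few genes are not reported here.

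Library numbers were taken to pair libraries where same-numbered residuals correlated above 0.1 for every number: TREM2-KO with WT (0.114 to 0.312), TREM2-R47H with WT (0.140 to 0.278) and SORL1-KO with SORL1-A528T (0.306 to 0.785). Alternatives were other pseudocounts, filters, scalings, fits, blocks and left-out libraries.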

Additional observations from a re-analysis of the deposited data

Results flagged for a closer look

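The level of 40 named members and 2 shares were screened in the 5 groups with at least 7 libraries, 210 sets in all. In 7 of them a single library lay far from the others by Dixon's criterion, where chance alone would give about 1 in 20. In WT, library 4 was the lowest for RPS18 (2124 TPM, the others 2430 to 2604 TPM), RPL35 (1723 TPM, the others 2029 to 2213 TPM) and RPL29 (1287 TPM, the others 1583 to 1671 TPM). In TREM2-R47H, library 4 was the lowest for RPL35 (2204 TPM, the others 2677 to 2946 TPM). The remaining ones were libraries that stood apart over all genes: TREM2-KO library 8 for RPL37A (2644 TPM, the others 3163 to 3530 TPM), SORL1-A528T library 7 for RPL22L1 (29.2 TPM, the others 75.6 to 106.0 TPM) and SORL1-KO library 7 for RPL39L (12.4 TPM, the others 19.8 to 25.3 TPM).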

How the results depend on the processing

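In TREM2-R47H against WT, 48 to 74 members were called higher and 0 lower under 10 alternatives (medians 0.26 to 0.34); without WT libraries 4, 5 and 6 it was 34, all among the 63. In TREM2-KO against TREM2-R47H, 52 to 73 were called, all lower except 1 under the replicate block. The share of all kept genes called under each of these alternatives is not given here. With the replicate block the counts were 74 and 73, and 1 in TREM2-KO against WT in either block fit (RPS27L); it changed no count of 0 elsewhere. Same-numbered residuals did not meet the pairing rule in TREM2-KO against TREM2-R47H, where they correlated by 0.092 to 0.540. Nor did they in the SORL1 and SNP lines against WT. In the SORL1 and SNP contrasts with WT the block counts rest on a pairing that the residuals do not bear out. In TREM2-KO against TREM2-R47H the lowest correlation lay just under the limit of 0.1. The block count there rests on a pairing that narrowly missed the rule. In INPP5D-SNP against WT 1 member, RPL22L1 (-0.56, adjusted p = 0.0265), was called in the fit of the 2 groups alone. RPS19 in TREM2-KO against TREM2-R47H changed sign, to 0.0098, with libraries 5 and 6 averaged. Leaving out a library gave share differences of -1.43 to 2.23 points in CD33-SNP and -1.55 to 1.12 points in INPP5D-SNP, and 0 called members in each. The other alternatives moved each share difference by less than the spread between libraries. Of the named calls, RPL35 and RPLP2 were lost without a filter, with libraries 5 and 6 averaged or without the 3 WT libraries, and RPS18 and RPL29 without the 3 WT libraries, where their differences were 0.40 and 0.33. Over all kept genes TREM2-R47H against WT gave 390 higher and 1303 lower calls as deposited, and 603 and 829 with median-ratio scaling, which moved the median of all genes to 0.01. Leaving out the 3 libraries that stood apart or the 3 WT libraries, averaging libraries 5 and 6, and rescaling without the 82 genes were chosen after seeing the data. Libraries 5 and 6 were the closest pair in WT and SORL1-A528T, with an SD of log2 differences over the more abundant genes of 0.192 and 0.200. In TREM2-R47H it was 0.197, and 0.126 between libraries 1 and 7. Whether libraries 5 and 6 are separate cultures is not given. Alternatives with averaged or fewer libraries use fewer samples. Counting error could not be computed from TPM.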
